A study of Mus musculus with 6 samples.

Results

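The genes described here are 10 nucleic acid sensors and adaptors, Ddx58, Ifih1, Dhx58, Mavs, Tmem173, Tlr3, Zbp1, Eif2ak2, Myd88 and Adar, followed in murine prostate cancer cells stimulated with colony-stimulating factor 1 (CSF-1). They were listed by name for their known role, with earlier results of these data known, and all 10 were found among the 36163 gene names on the array, with 14 probes of 55681. N18-Fms cells, called N18-CFMS in the sample labels, come from N18, a single luciferase-transfected clone of the C2H line, which is itself a clonal epithelial line from a prostate tumor of a TRAMP mouse. They were transduced with a retrovirus carrying mouse c-fms, which encodes the CSF-1 receptor (CSF-1R), and sorted by flow cytometry for the receptor at the surface. The 3 groups had 2 arrays each, from unstimulated cells (labelled as vehicle) and from cells given 100 ng/mL of recombinant mouse CSF-1, either for 24 h or for 48 h. All groups shared the clone, the luciferase vector, the transduced receptor and a medium with dihydrotestosterone, and N18 cells without the receptor were not analysed here, so a response to CSF-1 could not be set against cells that lack it. The labels state that RNA came from separate experiments but do not say which replicate came from which, so the p-values below measure the spread between these arrays.

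Cells detect foreign or misplaced nucleic acid with a small set of proteins. RIG-I (encoded by Ddx58) and MDA5 (Ifih1) bind double-stranded RNA in the cytosol, are modulated by their relative LGP2 (Dhx58), and signal through the mitochondrial adaptor MAVS, whereas STING (Tmem173) is the adaptor at the endoplasmic reticulum for cyclic GMP-AMP made by the DNA sensor cGAS. TLR3 recognizes double-stranded RNA in endosomes and signals through TRIF (Ticam1), while MyD88 is the adaptor of most other Toll-like receptors and of the interleukin-1 receptor family. ZBP1 binds left-handed Z-form nucleic acid and can trigger cell death through RIPK3, PKR (Eif2ak2) is a kinase that halts translation when it binds double-stranded RNA, and ADAR1 (Adar) edits adenosine to inosine in double-stranded RNA and so keeps the cell's own transcripts from being sensed. Several of these genes are themselves interferon-stimulated genes in many cell types.

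After 24 h of CSF-1, 7 of the 10 genes were upregulated, namely Ddx58, Dhx58, Tmem173, Tlr3, Zbp1, Eif2ak2 and Myd88, and the same 7 genes were upregulated after 48 h. Their fitted increases lay between 2.65-fold for Myd88 and 14.6-fold for Zbp1 at 24 h and between 2.11-fold for Myd88 and 27.2-fold for Zbp1 at 48 h, apart from Tlr3, for which only a lower bound could be given. Tlr3 could be tested only because it was well above background in the stimulated groups. Ifih1, Mavs and Adar did not pass the test at either time on the probes that stood for them. A gene counted as changed where its Benjamini-Hochberg adjusted p from limma, over the 24643 genes tested, was below 0.05. Of all genes tested, 8.02% were called higher and 5.99% lower at 24 h, 6.58% higher and 7.38% lower at 48 h, and 4.91% higher at both times. The median log2 fold change of the 10 genes was 1.69 at 24 h, or 1.64 with Tlr3 set at its bound, and 1.57 at 48 h, beside 0.0366 and -0.0442 over all genes tested. Leaving out either unstimulated array or either 24 h array left a group with no replicate, and the calls for Tlr3, Eif2ak2 and Myd88 at 24 h were lost each time. Fewer of all genes tested were then called higher too, so the loss was not particular to these genes. Their fitted log2 fold changes at 24 h in these fits were 3.13 to 3.51 for Tlr3, 1.38 to 1.88 for Eif2ak2 and 1.26 to 1.56 for Myd88. When the methods' t-test was adjusted over all genes, the count of members fell to 0 at both times, a setting under which 0 of the 24643 genes were called. In bulk RNA, more cells carrying a transcript and more of it in each cell cannot be told apart.

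**Figure D1:**
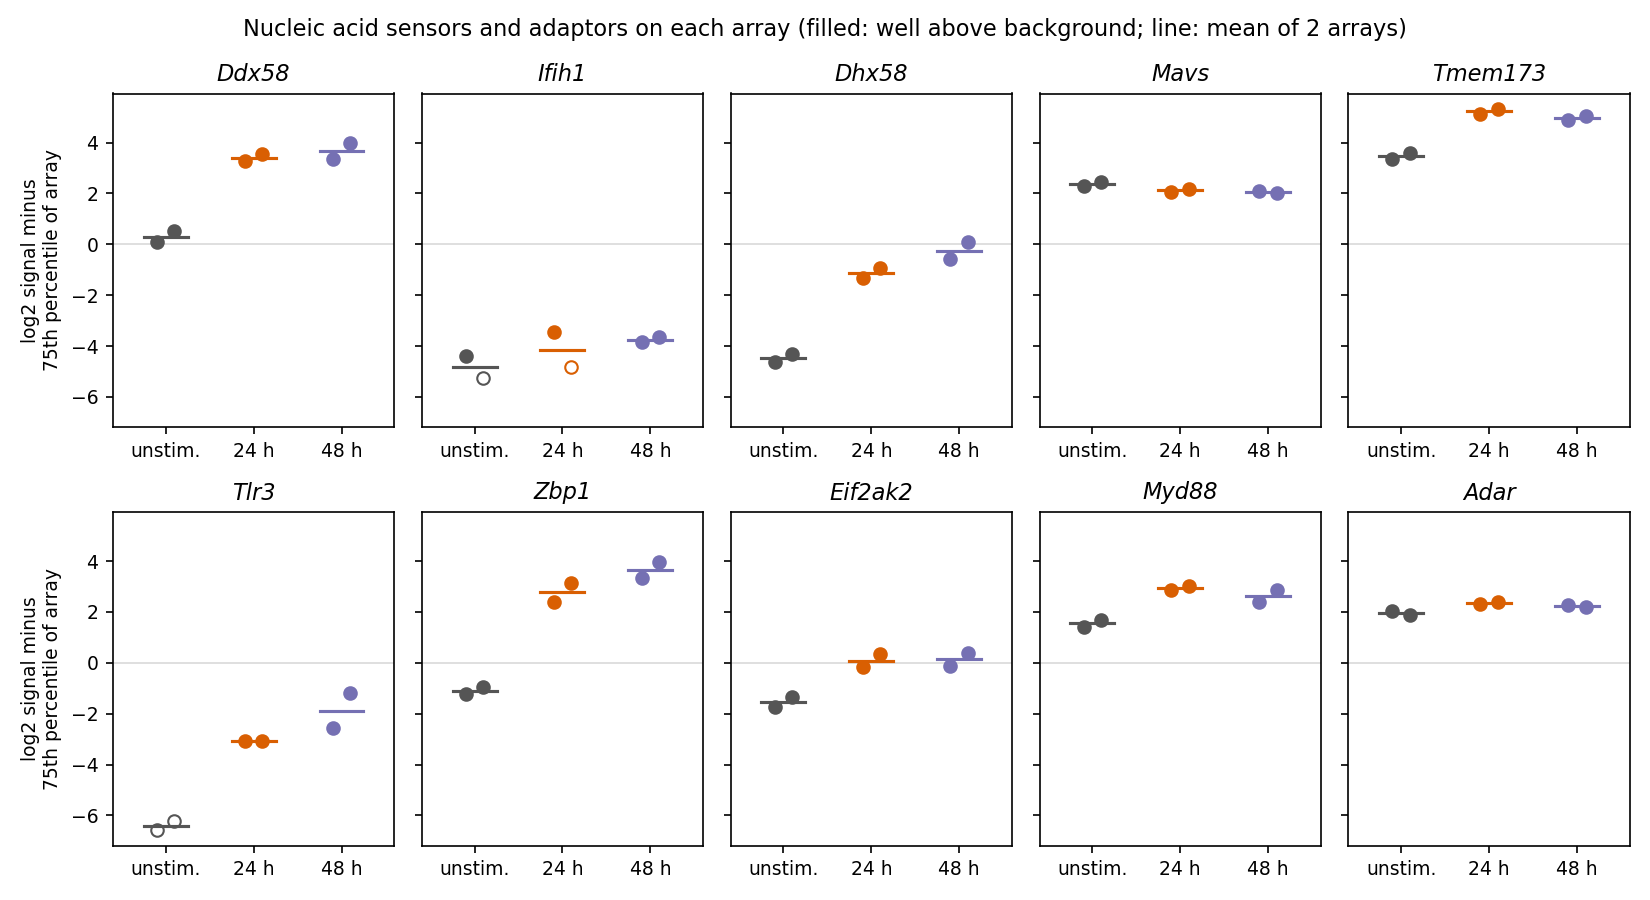
Normalised level of each gene on each array, by its brightest probe. The y axis is the log2 signal less that array's 75th percentile, the x axis gives the group (2 arrays each), points are arrays, hollow where the spot was not well above background, and lines are group means. Both unstimulated points lie below all 4 stimulated points in Ddx58, Dhx58, Tmem173, Tlr3, Zbp1, Eif2ak2 and Myd88 and, by a smaller margin, in Adar, whereas in Mavs they lie above them.

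Promoter sequences of the members were also described, and no test was made of them. RefSeq promoters of the GRCm38.p6 build, 250 bases before to 50 bases after a transcription start site, were at hand for 7 of the genes (9 promoters, 3 of them for Adar), and none is shown for Dhx58, Zbp1 or Tmem173. Both strands were searched for the core of the interferon-stimulated response element, taken as 2 GAAA tetramers 2 bases apart, and for TTCNNNGAA, the core of the gamma-activated site to which STAT dimers bind. The first core was in 3.44% and the second in 8.3% of the 32851 promoters of the same length. A further motif, GAAANGAAA, which can overlap the others, was added after these sequences had been read and was in 3.17% of promoters. One window per gene is printed here, on the strand of the gene, with the matched core in capitals.

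Ddx58, chr4:40239804-40239833, minus strand, response element core read on the opposite strand: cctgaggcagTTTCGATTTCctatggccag

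Ifih1, chr2:62646206-62646233, minus strand, response element core: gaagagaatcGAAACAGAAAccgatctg

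Eif2ak2, chr17:78882535-78882564, minus strand, response element core: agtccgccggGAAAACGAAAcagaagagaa

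Myd88, chr9:119340039-119340068, minus strand, response element core: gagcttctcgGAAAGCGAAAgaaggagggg

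Adar, chr3:89730730-89730758, plus strand, gamma-activated site core: gggaagccttTTCAAGGAAacgaaagtga

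The response element core was thus present in 4 of the 7 genes with a promoter. The core of the gamma-activated site was present in 3, Eif2ak2, Myd88 and Adar, and GAAANGAAA in 2, Ddx58 and Adar. In Myd88 both kinds of core overlap, and in Adar both matches overlap and lie in 1 of its 3 promoters. The promoters of Mavs and Tlr3 held no match to any of the 3 motifs in this window. A match of letters is a description of the sequence only, and it was found both in genes that were upregulated and in Ifih1, which did not pass the test.

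Ddx58 encodes RIG-I, the helicase that recognizes RNA with a free triphosphate end. Levels are given throughout as the log2 signal of a probe relative to its array's 75th percentile, so that 0 is the level below which 75% of the spots lay, and levels of different probes are not on a common scale. On its brightest probe, Ddx58 measured 0.09 and 0.51 in the unstimulated cells, 3.27 and 3.54 after 24 h, and 3.35 and 3.97 after 48 h. All 4 stimulated arrays were far above both unstimulated arrays, and the ranges at 24 h and 48 h overlapped. The log2 fold change was 3.11 at 24 h (SE 0.261, 95% confidence interval 2.45 to 3.76, 8.61-fold, limma adjusted p = 0.00414) and 3.36 at 48 h (2.70 to 4.01, 10.2-fold, adjusted p = 0.00302). A dimmer probe of the gene was not well above background in either unstimulated array and was so in all stimulated arrays, which gave an increase of at least 4.39-fold at 24 h and at least 5.62-fold at 48 h (limma adjusted p over all probes 0.00261 and 0.00175). That probe entered the test only through the stimulated arrays, so its p-values are no separate support for the increase. A bound of this kind sets each dim spot at the lowest signal that was well above background on its array, or at its own signal where that is higher. The brighter group enters as its mean, so the bound carries no allowance for the spread between arrays.

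Dhx58 encodes LGP2, which binds double-stranded RNA but has no caspase recruitment domains and so does not signal through MAVS on its own. It measured -4.62 and -4.31 in unstimulated cells, -1.32 and -0.93 after 24 h, and -0.59 and 0.08 after 48 h. The 3 groups did not overlap, with the 48 h arrays highest. Both unstimulated spots were well above background, but their signals of 22.4 and 30.8 were close to the lowest such signals on those arrays, 20.4 and 23.5. The folds below thus rest on a dim baseline. Dhx58 was upregulated 10.1-fold at 24 h (log2 fold change 3.34, SE 0.274, 2.65 to 4.03, limma adjusted p = 0.00386) and 18.5-fold at 48 h (4.21, 3.52 to 4.90, adjusted p = 0.00193). With normexp background correction in place of the deposited signal, which raises dim spots, and quantile normalization, the log2 fold change of Dhx58 was smaller, at 1.71 at 24 h and 2.43 at 48 h, and it passed the test at both times.

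Ifih1 encodes MDA5, which prefers long double-stranded RNA. It measured -4.39 and -5.25 in unstimulated cells, -3.46 and -4.81 after 24 h, and -3.84 and -3.65 after 48 h. The unstimulated and the 24 h arrays overlapped, while both 48 h arrays lay above the unstimulated ones. The spots were close to background, being well above it on 1 unstimulated array, 1 array at 24 h and both arrays at 48 h, and a further probe of the gene was well above background on none of the 6 arrays. The log2 fold change of 0.68 at 24 h (SE 0.5, -0.58 to 1.94, limma adjusted p = 0.422) and of 1.07 at 48 h (-0.18 to 2.33, adjusted p = 0.221) did not pass the test. The upper end of the interval at 48 h lay below the fitted increases of Ddx58 and Dhx58, but an increase of several fold was within it.

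Mavs encodes the adaptor through which RIG-I and MDA5 signal. Its level was 2.30 and 2.45 in unstimulated cells, 2.06 and 2.18 after 24 h, and 2.08 and 2.02 after 48 h. Every stimulated array was slightly below both unstimulated arrays, and the stimulated groups overlapped. The log2 fold change was -0.25 at 24 h (SE 0.118, -0.55 to 0.04) and -0.33 at 48 h (-0.62 to -0.03), with limma adjusted p of 0.217 and 0.133, so neither passed the test after adjustment.

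Tmem173 encodes STING, the adaptor that recruits TBK1 and IRF3 after cytosolic DNA has been sensed. Its level was 3.37 and 3.57 in unstimulated cells, 5.13 and 5.33 after 24 h, and 4.87 and 5.03 after 48 h. The replicates of each group lay close together, the stimulated arrays did not overlap the unstimulated ones, and the 24 h arrays were the highest. The increase was 3.38-fold at 24 h (log2 fold change 1.76, SE 0.142, 1.40 to 2.11, limma adjusted p = 0.00376) and 2.79-fold at 48 h (1.48, 1.12 to 1.84, adjusted p = 0.0051).

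Tlr3 encodes the endosomal receptor for double-stranded RNA. The probe read -6.59 and -6.21 in unstimulated cells, where the spots were not well above background on either array, -3.07 and -3.09 after 24 h, and -2.56 and -1.20 after 48 h. All stimulated arrays were well above background, and the 48 h arrays stood apart from each other by more than those of the other groups. Measured against the detection limit, Tlr3 rose at least 3.13-fold at 24 h and at least 7.21-fold at 48 h. It passed the filter on dim probes only through the stimulated groups. Its limma adjusted p, 0.0117 at 24 h and 0.0054 at 48 h, thus rests on unstimulated spots that were not well above background. With normexp correction followed by quantile normalization its log2 fold change was 0.68 at 24 h, where the call was lost (adjusted p = 0.119), and 1.49 at 48 h, so the bounds hold for the deposited signal. Its adjusted p at 24 h ranged from 0.00152 to 0.139 over all alternatives run.

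Myd88, the adaptor of most Toll-like receptors and of the interleukin-1 receptor family, had a probe printed in 10 spots, whose values were averaged. It measured 1.40 and 1.70 in unstimulated cells, 2.88 and 3.03 after 24 h, and 2.40 and 2.86 after 48 h. Unstimulated and stimulated arrays did not overlap, and the 24 h arrays were above the 48 h ones. The increase was 2.65-fold at 24 h (log2 fold change 1.41, SE 0.199, 0.91 to 1.91, limma adjusted p = 0.0139) and 2.11-fold at 48 h (1.08, 0.58 to 1.58, adjusted p = 0.028). At 48 h the call was lost in 11 of 22 alternatives. These were median centring (adjusted p = 0.0535), no filter on dim probes (0.093), a fit of the 4 arrays compared or with the slide as a block (0.0551), the methods' t-test at its own threshold and after adjustment, and leaving out 48 h replicate 2, either unstimulated array or either 24 h array (0.0551 to 0.122).

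Zbp1, the sensor of Z-form nucleic acid, changed more than any other member with a measured fold at both times. It read -1.23 and -0.97 in unstimulated cells, 2.39 and 3.14 after 24 h, and 3.35 and 3.98 after 48 h. The 3 groups did not overlap and lay in the order unstimulated, 24 h and 48 h. The increase was 14.6-fold at 24 h (log2 fold change 3.86, SE 0.325, 3.05 to 4.68, limma adjusted p = 0.00414) and 27.2-fold at 48 h (4.77, 3.95 to 5.58, adjusted p = 0.00209). A second Zbp1 probe, annotated to another position in the gene, read -3.82 and -3.95, then -0.62 and -0.03, then 0.49 and 1.11. It gave log2 fold changes of 3.56 and 4.68 (limma adjusted p over all probes 0.00438 and 0.00199), within 0.30 of the first probe at each time.

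Eif2ak2 encodes PKR, which phosphorylates the translation initiation factor eIF2 alpha. Its level was -1.73 and -1.34 in unstimulated cells, -0.16 and 0.34 after 24 h, and -0.14 and 0.40 after 48 h. The stimulated arrays were all above the unstimulated ones, and the values at the 2 times were almost the same. Eif2ak2 was upregulated 3.09-fold at 24 h (log2 fold change 1.63, SE 0.273, 0.94 to 2.31, limma adjusted p = 0.0214) and 3.17-fold at 48 h (1.67, 0.98 to 2.35, adjusted p = 0.0209). Without a filter on dim probes its call was lost at 24 h (adjusted p = 0.0656) and at 48 h (0.0761). At 48 h it was also lost without either unstimulated array or without 48 h replicate 2 (adjusted p between 0.07 and 0.104) and under the methods' t-test after adjustment (0.203).

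**Figure D2:**
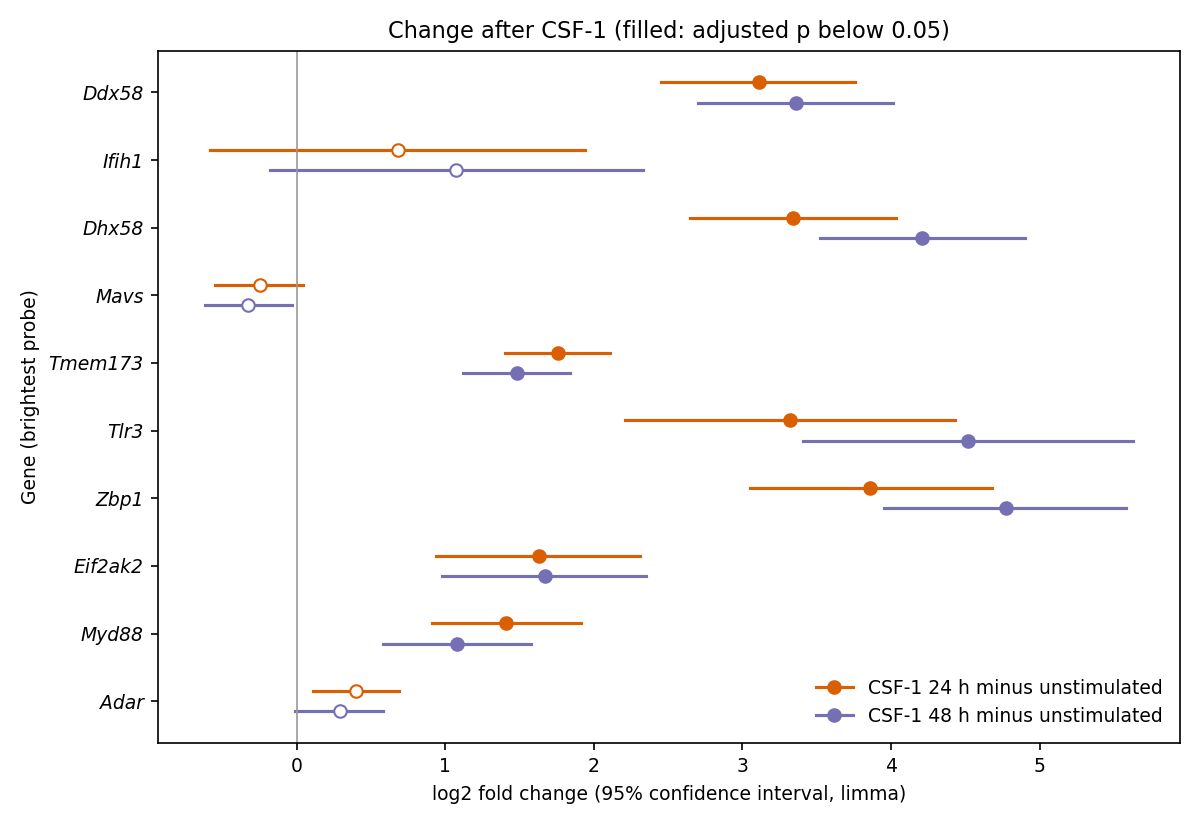
Change of each gene after CSF-1. The x axis is the log2 fold change against unstimulated cells, points are limma estimates from 2 arrays per group at 24 h and 48 h, filled where the adjusted p was below 0.05, and bars are 95% confidence intervals. Zbp1, Dhx58, Tlr3 and Ddx58 lie between 3.11 and 4.77, Tmem173, Eif2ak2 and Myd88 between 1.08 and 1.76, and Ifih1, Adar and Mavs are hollow. The unstimulated spots of Tlr3 were not well above background, so its points are fitted values and not bounds.

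Adar encodes ADAR1, and the call for it differed between its 2 probes. The brightest probe, at chr3:89555266-89555325 in the mm9 coordinates of the array annotation, read 2.04 and 1.88 in unstimulated cells, 2.31 and 2.40 after 24 h, and 2.28 and 2.21 after 48 h. The groups did not overlap, but the differences were small, with log2 fold changes of 0.40 (SE 0.117, 0.11 to 0.69, limma adjusted p = 0.0815) and 0.29 (-0.01 to 0.58, adjusted p = 0.169). The dimmer probe, at chr3:89557158-89557217, read -0.89 and -0.75, then 0.22 and 0.63, then 0.57 and 1.15. On that probe the unstimulated arrays were again the lowest, and the log2 fold changes of 1.24 and 1.67 passed the test (limma adjusted p over all probes 0.0343 and 0.0182).

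The difference between the probes was itself tested, in a fit added after these values had been seen, over the 6550 genes with at least 2 tested probes. The log2 fold change of the dimmer Adar probe exceeded that of the brighter one by 0.84 at 24 h (SE 0.272, limma adjusted p = 0.264) and by 1.39 at 48 h (adjusted p = 0.179), with unadjusted p of 0.0293 and 0.00454. Neither passed after adjustment, and 0.275% of these genes did at 24 h and 0.122% at 48 h. In Ddx58 the 2 probes differed in log2 fold change by -0.18 and -0.08, and in Zbp1 by -0.30 and -0.08 (limma adjusted p between 0.488 and 0.972). The call for Adar at 24 h depended both on the probe and on the processing. It was also made with the mean of both probes (0.82, limma adjusted p = 0.0279). On the brightest probe it was made with normexp correction (0.37, adjusted p = 0.0496), with normexp correction and quantile normalization (0.46, adjusted p = 0.0216) and with an intensity trend in the prior spread (0.40, adjusted p = 0.0349). Over all alternatives its adjusted p at 24 h ranged from 0.0216 to 0.606.

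**Figure D3:**
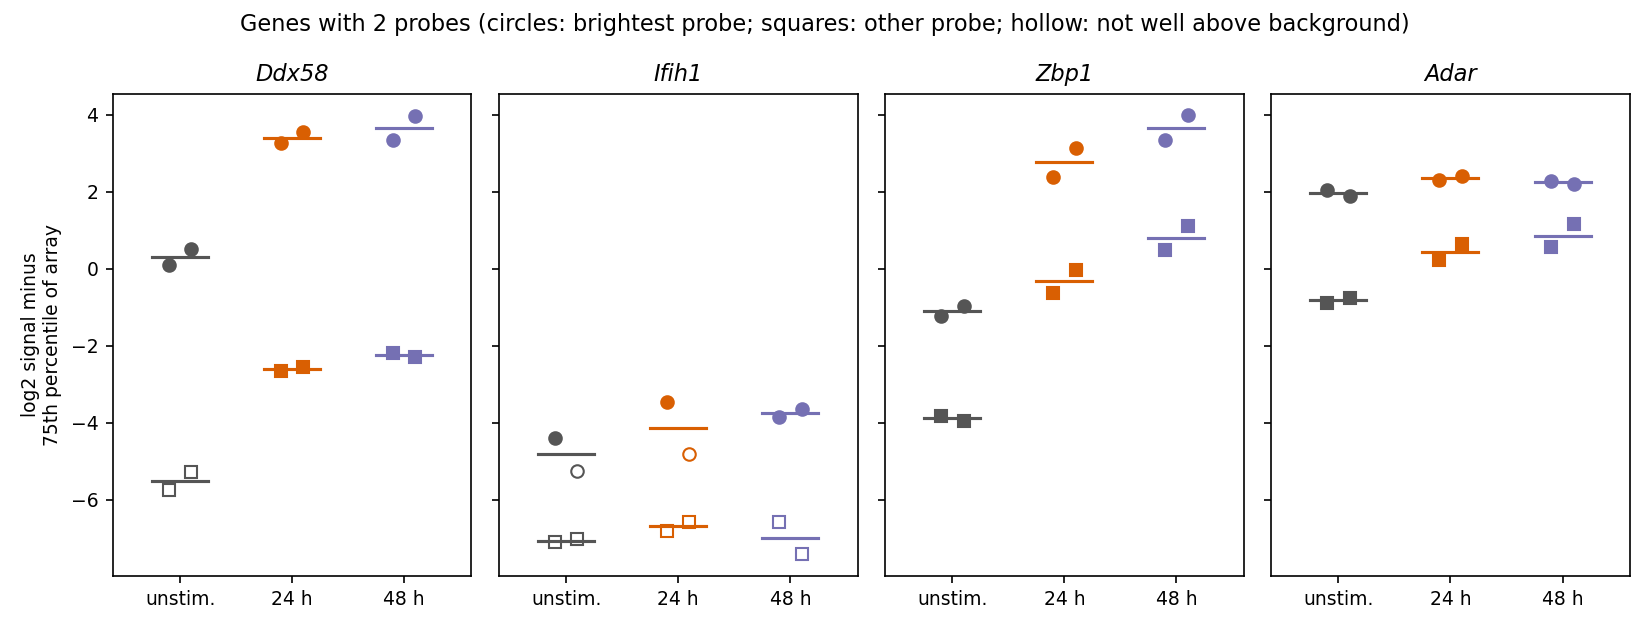
The genes with 2 probes, Ddx58, Ifih1, Zbp1 and Adar. The y axis is the log2 signal less that array's 75th percentile, circles are the brightest probe and squares the other one, lines are means of 2 arrays, and hollow points were not well above background. The squares of Adar rise from -0.89 and -0.75 to 0.57 and 1.15 while its circles move between 1.88 and 2.40, and the probes of Zbp1 run in parallel.

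No member changed between 24 h and 48 h after adjustment (limma), and 0% of all genes tested did in either direction, although 3355 of these had an unadjusted p below 0.05. The methods' t-test adjusted over all genes called 0 as well. Among the members, 3 had an unadjusted p below 0.05, each with the higher value at 48 h. These were Tlr3 (log2 difference 1.20, limma adjusted p = 0.333), Zbp1 (0.90, adjusted p = 0.327) and Dhx58 (0.87, adjusted p = 0.274). The signal of Tmem173 and of Myd88 was lower at 48 h by -0.28 and -0.33 (limma adjusted p 0.463 and 0.524). For the other members the difference lay between -0.11 for Adar and 0.39 for Ifih1, and the median over the 10 was 0.14 beside -0.0845 over all genes.

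**Figure D4:**
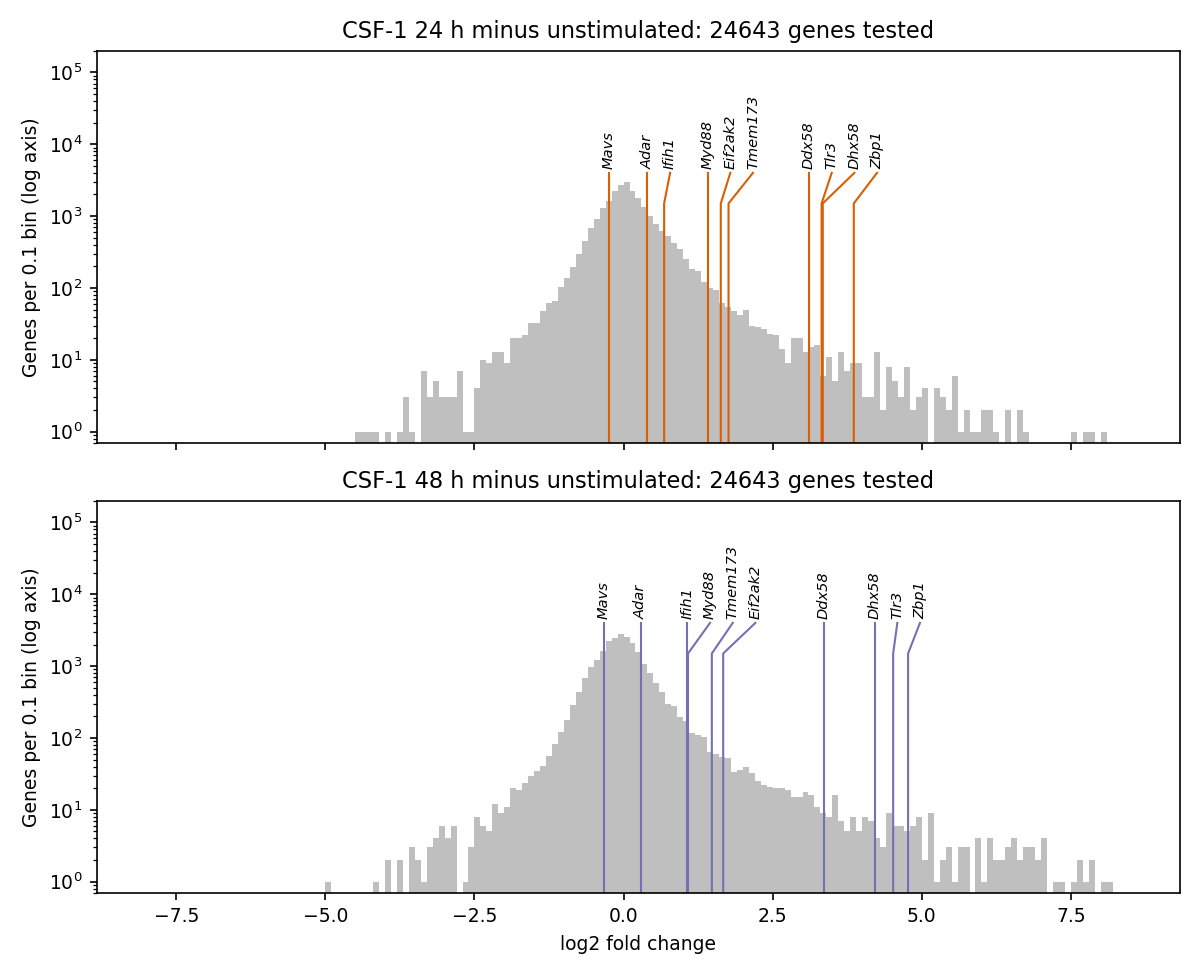
Members among all 24643 genes tested. The x axis is the log2 fold change against unstimulated cells, the y axis the number of genes per 0.1 bin on a log axis, for 24 h (top) and 48 h (bottom), and vertical lines mark the 10 members. Zbp1, at 3.86 and 4.77, lies in the sparse right tail and Mavs, at -0.25 and -0.33, within the bulk.

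The genes whose pattern over the 6 arrays was closest to a member were found for Ddx58, Tmem173 and Myd88 among 13839 genes named in the RefSeq table, by the Euclidean distance between log2 values set to 0 at each gene's own unstimulated mean. Closest to Ddx58 were Serpina3m (distance 0.264), Samd9l (0.357) and Trim34a (0.395), and 0.231% of genes lay within a distance of 1. Closest to Tmem173 were St3gal4 (0.236), Afap1 (0.264) and Prdx5 (0.265), with 1.59% of genes within 1. Closest to Myd88 were Il18rap (0.166), Clip2 (0.182) and Stat3 (0.214), with 3.09% of genes within 1. The 6 arrays are shared by all of these genes, and no test was made of the likeness.

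Downstream of MAVS and STING, the kinases TBK1 and IKK epsilon activate the transcription factors IRF3 and IRF7. Of 17 tested genes of this route, 3 were called higher and 1 lower at 24 h, and 1 higher and 0 lower at 48 h, with a median log2 fold change of 0.20 and 0.09. Irf7 alone was called at both times. It measured -4.45 on both unstimulated arrays, -0.92 and -0.65 after 24 h, and 0.25 and 0.67 after 48 h, a log2 fold change of 3.67 (limma adjusted p = 0.00145) and 4.91 (adjusted p = 0.000928). The other calls at 24 h were Irf5 (0.92), Casp8 (0.74) and Tbkbp1 (-0.88), named to complete the count. Irf3 (0.10 and -0.05), Tbk1 (-0.21 and -0.13) and Ikbke (0.39 and 0.09) did not pass the test at either time.

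Regulators of the RIG-I-like receptors include ubiquitin ligases such as TRIM25, which activates RIG-I, and RNF125, which marks it for degradation. Among 17 tested, 2 were called higher and 1 lower at 24 h, and 4 higher and 1 lower at 48 h, with medians of 0.18 and -0.08. Nlrc5 and Rnf125 were not well above background in unstimulated cells and entered the test only through stimulated groups. Nlrc5 rose at least 3.91-fold and at least 7.74-fold (limma adjusted p = 0.0319 and 0.0164), and Rnf125 at least 3.63-fold and at least 1.98-fold (adjusted p = 0.00938 and 0.0184), the latter from a group in which 1 of 2 arrays was well above background. Cyld, a deubiquitinase, fell by 1.94 at 24 h and by 1.44 at 48 h on the log2 scale (limma adjusted p = 0.00308 and 0.00554). At 48 h Rnf135 (0.90) and Atg12 (0.46) were also called, while Trim25, at 0.18 and 0.38, was not.

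On the DNA side, 15 genes of cytosolic DNA sensing and its nucleases were tested. Called higher were 3 at both times, Ifi204, Trex1 and Ddx41, and called lower were 2 at 24 h, Xrcc6 and Samhd1, and 3 at 48 h, Xrcc6, Mre11a and Rnaseh2b, with medians of -0.28 and 0.01. Ifi204, a DNA-binding protein of the interferon-inducible p200 family, had log2 fold changes of 1.72 and 1.98 (limma adjusted p = 0.0101 and 0.00719). Trex1, the exonuclease that degrades cytosolic DNA, had 1.26 and 1.78 (adjusted p = 0.018 and 0.00751). The gene of cGAS, listed under its older name E330016A19Rik, had -0.31 and -0.34 (adjusted p = 0.22 and 0.191), so that its product's adaptor Tmem173 passed the test and the sensor did not. The difference between these genes was not tested. Aim2 was well above background on 1 of the 6 arrays and was not tested.

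Of the 23 other Toll-like receptors, adaptors and partners, 16 could be tested. Called higher were Irak4, Cd14 and Tirap and lower Cnpy3 and Irak1 at 24 h, and Irak4, Cd14 and Ly96 higher and 0 lower at 48 h, with medians of 0.09 and 0.11. Irak4, the first kinase recruited by MyD88, had log2 fold changes of 0.98 and 0.75 (limma adjusted p = 0.00779 and 0.0155) and Cd14, the lipopolysaccharide co-receptor, 0.87 and 0.69 (adjusted p = 0.0101 and 0.0191). Ticam1, the adaptor that TLR3 uses, had -0.06 and -0.10, and Unc93b1, which carries TLR3 and other receptors to endosomes, had 0.02 and 0.38, and neither passed. Tlr7 (0.24 and 0.15) and Tlr9 (-0.32 and -0.31), receptors for single-stranded RNA and for DNA, did not pass either.

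Of 14 tested partners of ZBP1 and PKR, 1 was called higher and 0 lower at 24 h, and 2 were called higher and 1 lower at 48 h, with medians of -0.20 and -0.11. Mlkl, the executioner of necroptosis, had log2 fold changes of 1.12 and 1.18 (limma adjusted p = 0.0116 and 0.0106). Ripk3, the kinase that ZBP1 engages, had 0.32 and 0.31 (adjusted p = 0.122 and 0.135). At 48 h Ddit3 (1.07) and Tarbp2 (-0.66) made up the count. In the family of Adar, 3 of 4 genes were tested and Adarb1, which encodes the editing enzyme ADAR2, was the 1 called higher, with 2.68 and 2.49 (adjusted p = 0.00182 and 0.00176). Adarb1 measured 0.28 and 0.62 in unstimulated cells, 3.13 and 3.12 after 24 h, and 2.83 and 3.05 after 48 h, and the groups did not overlap between unstimulated and stimulated cells.

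Several of these sensors, though not all members of the set, can induce interferons, and interferons induce interferon-stimulated genes. Of 11 interferon genes tested, 0 passed the limma test at either time, 0 had an unadjusted p below 0.05, and the methods' t-test called 0. The probes of Ifnb1, Ifna4, Ifne and Ifng were well above background on none of the 6 arrays, and probes of the closely related Ifna genes may share signal. In a yardstick of 18 interferon-stimulated genes, 15 were called higher at 24 h and 17 at 48 h, and 0 lower. Their median log2 fold change was 3.80 and 5.17, or 3.05 and 4.61 with the genes that had only a bound set at it. Genes with only a bound were not well above background in unstimulated cells and entered the test only through stimulated groups. Usp18 (6.66 and 8.04), Ifit3 (6.14 and 7.52) and Oas1a (5.56 and 7.64) changed most among those called at both times. All comparisons with unstimulated cells share the same 2 control arrays, so the values at the 2 times are not independent of each other.

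**Figure D5:**
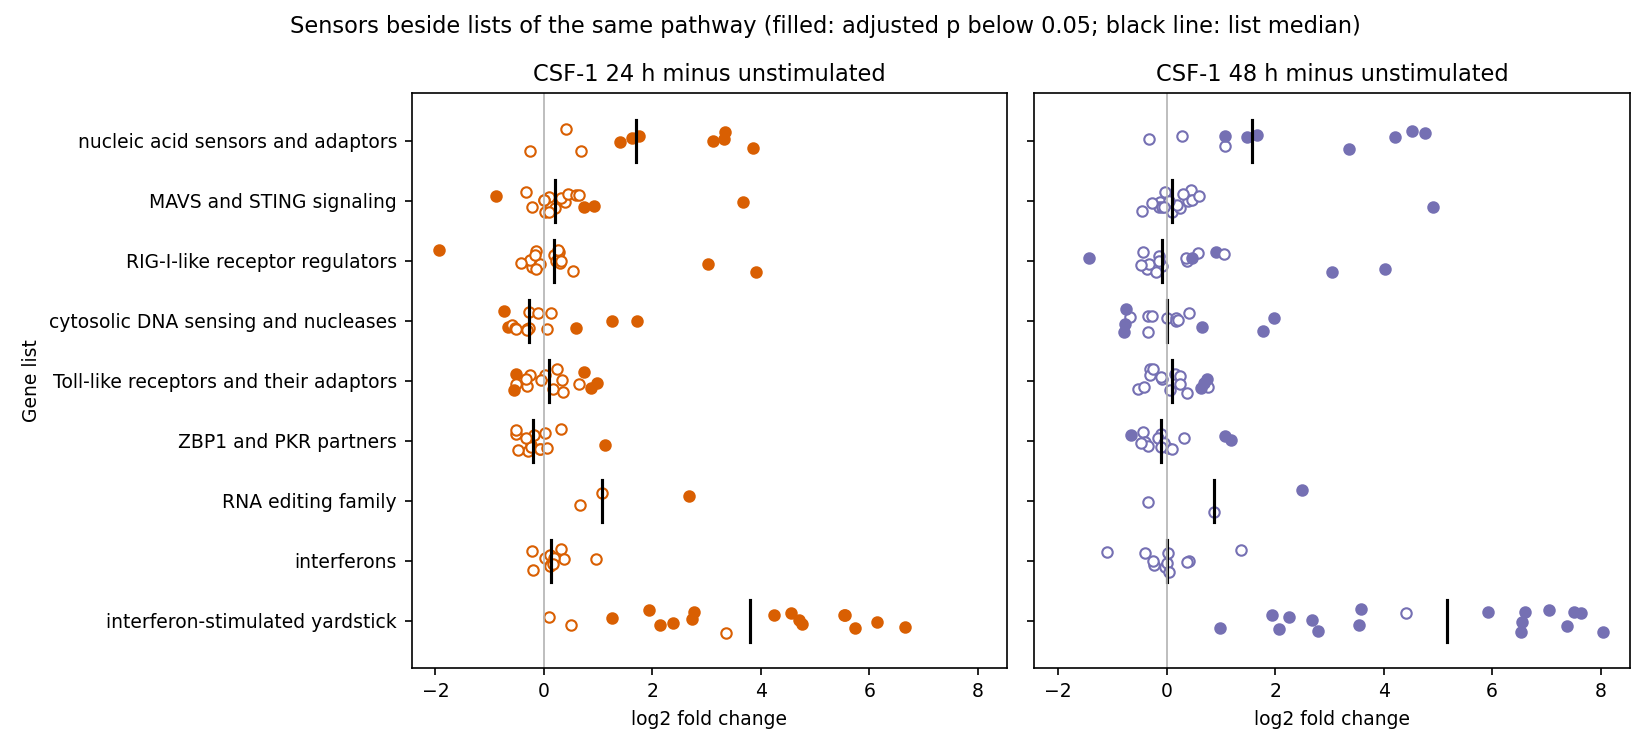
The sensors beside other genes of their pathways. The x axis is the log2 fold change against unstimulated cells at 24 h (left) and 48 h (right), each point is a gene, filled where the limma adjusted p was below 0.05, black lines are list medians, and vertical scatter within a list has no meaning. The median of the sensors, 1.69 and 1.57, lies between that of the interferon-stimulated genes, 3.80 and 5.17, and those of the signaling, regulator, DNA-sensing and Toll-like receptor lists, which lie between -0.28 and 0.20. Genes not well above background in unstimulated cells are drawn at their fitted value.

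Across the arrays, between 58.7% and 72.0% of the 59305 spots other than controls were well above background, 0 were saturated, and the 75th percentile of the signal lay between 550.3 and 610.9. The 24 h replicate 1 array was on another slide than the other 5, so that leaving it out and fitting the slide as a block are the same. The transduced Csf1r had log2 fold changes of 0.22 and -0.07 (limma adjusted p = 0.367 and 0.793). Csf1, the gene of its ligand, read 4.08 and 4.28 in unstimulated cells and had -0.36 and -0.70 (limma adjusted p = 0.476 and 0.184). The paper reports CSF-1 protein in medium from N18 cells, so the unstimulated group was not necessarily free of the ligand. Of 10 prostate epithelial markers, 5 were well above background on all arrays, among them Krt8 and Trp63, and Cdh1 and Hoxb13 on none. Epcam was well above background on 1 array and Krt18 on 3, and Krt8 was dim, at -3.04 and -2.37 in unstimulated cells. The summed level of the 10 markers (signal over the 75th percentile of the array, added over the markers) was 14.4 to 14.7 in unstimulated cells, 11.1 to 12.9 at 24 h and 12.7 to 14.7 at 48 h. Of this the Trp63 probe made up 90.4% to 95.6%, the other markers summing to 0.648 to 0.699, 0.832 to 0.968 and 1.07 to 1.22. Of 7 tested, 0 were called at 24 h and Krt8 was called higher at 48 h (1.98). Of 17 macrophage markers, 8 were well above background on all arrays, among them Itgam and Fcer1g, and Lyz2 and C1qc on none. Of 10 tested, 2 were called higher at both times, Mrc1 (4.27 and 3.56) and Mpeg1 (0.95 and 3.12), with a median log2 fold change of 0.23 and 0.10 over those tested. The summed level of the 17 markers was 42.2 to 47.8 in unstimulated cells, 34.4 to 41.8 at 24 h and 30.3 to 39.3 at 48 h. Of this Itgam made up 69.5% to 88.6%, and without Itgam it was 4.81 to 5.55, 8.32 to 8.49 and 9.02 to 9.26. Of 13 lymphocyte and dendritic cell markers, 7 were well above background on all arrays, among them Cd4, Cd3e and Nkg7, and Ms4a1 and Itgax on none. Of 8 tested, 0 were called. The summed level of the 13 markers was 91 to 108 in unstimulated cells, 83.8 to 86.9 at 24 h and 86.4 at 48 h, with Siglech making up 58.5% to 72.6%. Fibroblast markers moved with the groups, with 2 of 7 called higher and 4 lower at 24 h, and 1 higher and 4 lower at 48 h. Of 8 fibroblast markers, 7 were well above background on all arrays and Lum on none. Their summed level was 331 to 333 in unstimulated cells, 140 to 150 at 24 h and 126 to 168 at 48 h, or 135 to 140, 72 to 74 and 57.4 to 68.4 without Col1a2. Since probes are not on a common scale, such a sum is weighted to the brightest probe. Their part in the increase of the sensors was not tested.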

How the data were processed

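RNA of N18-Fms cells was hybridised to single-colour Agilent mouse arrays, 2 per group. Per the labels and file headers, arrays were read with Agilent Feature Extraction 11.0.1.1, and the authors deposited its processed signal, a background-subtracted linear intensity with no normalisation between arrays, beside the mean and local background intensity. The authors also deposited log2 values. Over the 44323 probes with usable values in both forms, the deposited log2 values follow the log2 signal centred per probe (r between 0.897 and 0.946 across probes, column medians 0.0258, -0.0371, 0.174, 0.00653, -0.00948 and -0.0236), with the exact centring not given in the sources used here. The methods name shorter stimulation times than the labels, and the labels were used.

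Outlier spots were removed, the spots of a probe averaged, log2 taken and the 75th percentile of each array over non-control spots subtracted. The brightest probe stood for a gene (36028 genes), and the 24643 genes detected well above background on each array of 1 group or more entered a single limma 3.58.1 fit of all 6 arrays (lmFit and eBayes in R 4.3.3, version 1.17.8 of data.table), 2-sided, with 3 residual and 2.39 prior degrees of freedom and Benjamini-Hochberg adjustment. With 2 against 2 arrays an exact permutation test cannot go below p = 0.333. Replicate arrays correlated at 0.9926 to 0.9936 across genes, with 0 identical values, and the number of arrays limits the precision. The fit was tested on simulated data with independent normal noise and changes of at least 2 on the log2 scale. Smaller changes, a slide effect and shifts shared between genes of an array were not part of that simulation.

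The members and the gene lists were chosen with earlier results of these data known. Genes named beside the members are the 3 of each list called at both times with the largest mean change, a fixed set of pathway genes whatever their values, and the 3 nearest to Ddx58, Tmem173 and Myd88. Other list genes are named only to complete counts of 5 or fewer and were chosen after their values were seen. Some markers of the epithelial list are not reported here. The probe-difference fit and the GAAANGAAA motif were added after seeing the data. The methods' t-test is a 2-sided Student test, called at an unadjusted p below 0.05 and at least 2-fold. The paper names that test for its statistics in general, and its section on the arrays names none. Both thresholds are those in the caption of its array figure. Figures were drawn with matplotlib 3.10.9 in Python 3.11.15.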

Additional observations from a re-analysis of the deposited data

How the results depend on the processing

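Ddx58, Dhx58, Tmem173 and Zbp1 kept their calls at both times under every alternative run except the methods' t-test after Benjamini-Hochberg adjustment, under which 0 members were called at either time. No member was called lower in any alternative. Against unstimulated cells, the number called higher ran from 0 to 8 over 23 alternatives at each time, and was 8 where Adar was also called. At 24 h the number called higher was 7, with 4 when the slide was fitted as a block and between 4 and 7 over the arrays left out in turn. At 48 h it was 7, and between 5 and 7 over the arrays left out. Between 48 h and 24 h the number called higher was 0, with 1, Tlr3, at an unadjusted p below 0.05 and at least 2-fold. Differences between the times that were not called changed sign for Adar with median centring (0.07), the mean of both probes (0.16) and the other probe (0.43), for Mavs with median centring (0.11) and for Eif2ak2 with the slide as a block (-0.21). Over the arrays left out, that difference ran from -0.06 to 0.56 for Ddx58, from -0.23 to 0.31 for Eif2ak2 and from -0.28 to 1.07 for Ifih1. The cause was not tested. No fold change against unstimulated cells changed sign among 221 values at 24 h and 221 at 48 h, and of the counts in gene lists 1394 of 1656 stayed within 1.5 times.

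Median centring moved the median log2 fold change of all genes to -0.247 at 24 h and -0.144 at 48 h, and the share of calls at 24 h that were higher from 57.3% to 24.4%. Without a filter on dim probes 968 genes were called higher and 351 lower at 24 h, against 1977 and 1476, and with the slide as a block 716 and 362. Between 48 h and 24 h, normexp correction with the 75th percentile called 164 genes higher and 47 lower, none of them a member, against 0 and 0.

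With the replicate block, 7 members were called higher at each time and 0 between the times, and no call of a member changed. Among all genes 2242 were called higher and 1559 lower at 24 h and 1841 and 2125 at 48 h. The replicate numbers are not stated to pair the arrays, and the differences of replicate 2 from replicate 1 correlated across genes at 0.128, 0.0941 and 0.199 between groups, so the numbers were not taken as pairs. The 2 arrays a group and spots near background limit what these data can show. Such spots were those of Ifih1 and Tlr3 and, in unstimulated cells, of Dhx58 and Irf7.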

Other observations

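Replicate 2 read higher than replicate 1 for 8 of the 10 sensors and adaptors in each of the 3 groups, with a median log2 difference of 0.28 for the unstimulated, 0.17 for the 24 h and 0.50 for the 48 h arrays. Over all genes tested, 40.6%, 42.1% and 46.9% were higher in replicate 2. This was noticed after the values were seen. The RNA came from separate experiments, not stated to match the replicate numbers, and 24 h replicate 1 was on another slide. The cause was not tested.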
